A study of Mus musculus with 48 samples.

Results

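The major urinary proteins are small secreted carrier proteins encoded by a gene cluster on mouse chromosome 4. Of the cluster's genes, 10 were followed in liver by their symbols in the deposited table: Mup1, Mup3, Mup7, Mup9, Mup11, Mup14, Mup16, Mup17, Mup20 and Mup21. They are 10 of the 48 rows whose symbol starts with Mup and of the 49315 genes in the table. The study measured polyadenylated RNA in the livers of male and female C57BL/6J mice. Their feed was low in fat (LFD) or high in fat (HFD), and once a week for 12 weeks they were given vehicle alone or 3 dioxin-like compounds together, called the mixture below. Each weekly dose of the mixture held 10 ng/kg TCDD, 80 ng/kg PeCDF and 140 ng/kg PCB126, all ligands of the aryl hydrocarbon receptor. Sex, diet and mixture gave 8 groups of 6 livers, 48 libraries in all, and no group carried a genetic alteration in the labels. For the ages of the mice, the make-up of the diets and any housing or sequencing batch, the sources used here give nothing.

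Major urinary proteins belong to the lipocalins, which hold small hydrophobic molecules in a barrel-shaped pocket. Hepatocytes secrete them into blood, the kidney passes them into urine, and there they bind and slowly release volatile pheromones. Adult male mice make far more of them than females, under the pulsed growth hormone secretion of males and its signal through STAT5B in the hepatocyte. The cluster holds a central set of recent, nearly identical copies and a more diverged set towards its edge. Of the members here, Mup3, Mup20 and Mup21 are diverged, and the remaining 7 are of the near-identical kind. Mup20 encodes darcin, a protein that is itself a male scent signal attractive to females.

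All 10 members are protein-coding genes on the minus strand of GRCm38 chromosome 4, between base 60066469 and base 62150863 in the GENCODE annotation. The diverged genes lie side by side at its far end, with Mup20 at chr4:62050234-62054158, Mup3 at chr4:62083476-62087342 and Mup21 at chr4:62147932-62150863. Mup7 lies at the opposite end, at chr4:60066469-60070475, and is followed by Mup9 (chr4:60418046-60421952), Mup1 (chr4:60498012-60501960) and Mup11 (chr4:60658466-60662411). Mup14 (chr4:61300023-61304000), Mup16 (chr4:61515592-61519531) and Mup17 (chr4:61591929-61595871) come next. A stretch of 60 coding bases is shown because it lets the near-identical and the diverged genes be told apart by eye. It was picked as the stretch with the most differing positions among Mup3, Mup7, Mup11, Mup14, Mup20 and Mup21, so its counts of differences are high by selection. Capitals mark the bases that differ from Mup11, the copy taken as the standard. Mup1 and Mup14 have the same letters as Mup11 in this stretch, Mup16 has those of Mup9, and Mup17 those of Mup7.
Mup11: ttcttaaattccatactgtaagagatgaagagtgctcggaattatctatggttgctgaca
Mup9: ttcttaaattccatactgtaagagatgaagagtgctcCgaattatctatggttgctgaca
Mup7: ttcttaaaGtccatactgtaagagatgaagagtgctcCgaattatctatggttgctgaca
Mup20: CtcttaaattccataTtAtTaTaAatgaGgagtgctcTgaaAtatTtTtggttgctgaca
Mup21: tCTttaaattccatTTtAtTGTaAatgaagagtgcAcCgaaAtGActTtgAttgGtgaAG
Mup3: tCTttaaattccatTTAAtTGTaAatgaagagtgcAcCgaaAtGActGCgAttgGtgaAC
Mup3 differed from Mup11 at 21 of these 60 bases, Mup21 at 19 and Mup20 at 11, against 2 for Mup7. Over the coding bases aligned without gaps, identity between members ran from 83.9% for Mup3 and Mup7 to 99.8% for Mup9 and Mup11. Both of these pairs were compared over 540 bases, whereas the coding sequences used for Mup7 and Mup9 hold 705. Mup3 and Mup21 were 96.3% identical to each other, and Mup20 was 91.3% identical to Mup11.

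These sequences bear on how well each gene could be counted. Of all the 100-base windows in a gene's annotated transcripts, 97.8% occurred in no other gene for Mup3, 95.5% for Mup21 and 61.2% for Mup20. The share was 44.3% for Mup1, 40.6% for Mup17, 29.4% for Mup11, 28.1% for Mup9, 24.3% for Mup14, 23.9% for Mup7 and 17.6% for Mup16. Reads from the 7 near-identical genes could thus have been split among them, or left out, by the authors' counting. The sources used here do not say how reads that match several places were treated, so a value for one of these 7 is uncertain as a value for that gene alone.

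RefSeq promoter windows on GRCm38.p6, from 250 bases before the annotated start to 50 after it, were matched for 7 of the 10 members; Mup1, Mup16 and Mup20 had none. Those of 4 genes are printed, on the minus strand, because their genes had the highest level (Mup3), the closest relative of it (Mup21), the largest fall on the high-fat diet (Mup7) and a rise on that diet in females (Mup17). Capitals mark the 19-letter run AAAACATTCCACAAAGCCT, the longest shared by all 7 windows, and the letters TATATAA.
Mup3 (chr4:62087268-62087567): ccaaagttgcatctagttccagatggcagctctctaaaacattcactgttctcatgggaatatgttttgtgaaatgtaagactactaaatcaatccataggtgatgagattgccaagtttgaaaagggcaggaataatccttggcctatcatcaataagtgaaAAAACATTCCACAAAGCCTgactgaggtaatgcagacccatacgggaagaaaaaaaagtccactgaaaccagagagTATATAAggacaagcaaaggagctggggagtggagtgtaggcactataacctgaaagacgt
Mup21 (chr4:62150792-62151091): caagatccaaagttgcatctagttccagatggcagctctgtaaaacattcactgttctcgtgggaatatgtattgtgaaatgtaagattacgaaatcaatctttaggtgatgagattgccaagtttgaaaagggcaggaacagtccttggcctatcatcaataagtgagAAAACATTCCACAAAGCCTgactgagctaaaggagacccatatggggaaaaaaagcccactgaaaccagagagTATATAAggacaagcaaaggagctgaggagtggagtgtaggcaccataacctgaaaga
Mup7 (chr4:60070426-60070725): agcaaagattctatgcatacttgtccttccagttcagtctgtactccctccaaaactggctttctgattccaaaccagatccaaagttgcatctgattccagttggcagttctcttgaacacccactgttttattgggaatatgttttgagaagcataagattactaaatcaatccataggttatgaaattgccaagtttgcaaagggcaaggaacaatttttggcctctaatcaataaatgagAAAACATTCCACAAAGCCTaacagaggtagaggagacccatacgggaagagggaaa
Mup17 (chr4:61595783-61596082): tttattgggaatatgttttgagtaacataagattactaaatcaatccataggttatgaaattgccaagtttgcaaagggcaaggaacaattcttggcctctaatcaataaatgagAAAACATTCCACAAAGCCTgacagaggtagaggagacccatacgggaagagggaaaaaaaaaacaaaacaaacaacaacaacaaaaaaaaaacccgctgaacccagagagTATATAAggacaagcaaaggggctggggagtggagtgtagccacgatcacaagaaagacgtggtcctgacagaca
The shared run was found in 11 of all 32851 promoter windows (0.0335%), and all 11 belonged to the 14 numbered Mup genes with a window. TATATAA occurred in 6 of the 7 member windows and in 3.24% of all windows, and the Mup7 window, whose annotated start lies 6 bases after the first letter of the shared run, did not hold it. Both letter strings were chosen after the windows were read. None of the 7 windows held, on either strand, the STAT5 letters TTCNNNGAA (8.3% of all windows), the dioxin response core GCGTG (32.4%), TATAAA (13.6%), the C/EBP letters TTGCGCAA (0.183%) or the HNF4 core CAAAGTCCA (0.475%). These windows are short, and a match or its absence describes letters only.

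Levels were deposited as TPM, transcript abundance corrected for transcript length and scaled to a total of 1000000 in each library. Because TPM keeps no read count, the depth of the libraries is unknown and no counting interval can be given. Between 13180 and 14713 genes reached 1 TPM in a library. The 10 hepatocyte markers were abundant in all groups, with medians of their summed level from 82298 to 147928 TPM. Skeletal muscle markers summed to 24374 TPM in male HFD mixture replicate 6, 9130 in female LFD vehicle replicate 3 and 1925 in female LFD mixture replicate 3, against a median of 29.2 in the other 45 libraries. Every library fitted the sex on its label. The labels number the livers of a group as replicates without saying that each came from a separate animal, so each p-value reflects only how far these samples spread, which may be technical.

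Mup3 was the most abundant member in all 8 groups, and Mup20 came next in 7 of them. In LFD vehicle males, Mup3 ranged from 14614 to 21942.5 TPM with a median of 19402, Mup20 from 9178 to 13691 with a median of 10844, and Mup7 from 2102 to 8006 with a median of 4698. The ranges of these 3 genes did not overlap in that group. Together the 10 members held 3.74% ± 0.61 of all TPM there (SD, n = 6), of which Mup3 made up 50.1% and Mup20 29.7%. Below them, Mup21 averaged 1163 ± 386 TPM, Mup17 604.5 ± 292, Mup14 529 ± 276, Mup11 208 ± 88.5 and Mup16 108 ± 78.7. Each of these 5 overlapped its neighbour in the order, so the order of neighbours in LFD vehicle males did not exceed the spread between livers. Genes farther apart could be separate, as Mup21 lay wholly above Mup11. Mup1 averaged 22.3 ± 11.2 TPM and Mup9 2.97 ± 1.15. Mup1 was listed at 1 TPM or more in 23 of 24 male and 3 of 24 female libraries, and Mup9 in 19 and 7. All 10 members passed the filter on low values, which asked for 1 TPM in at least 6 libraries.

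**Figure D1:**
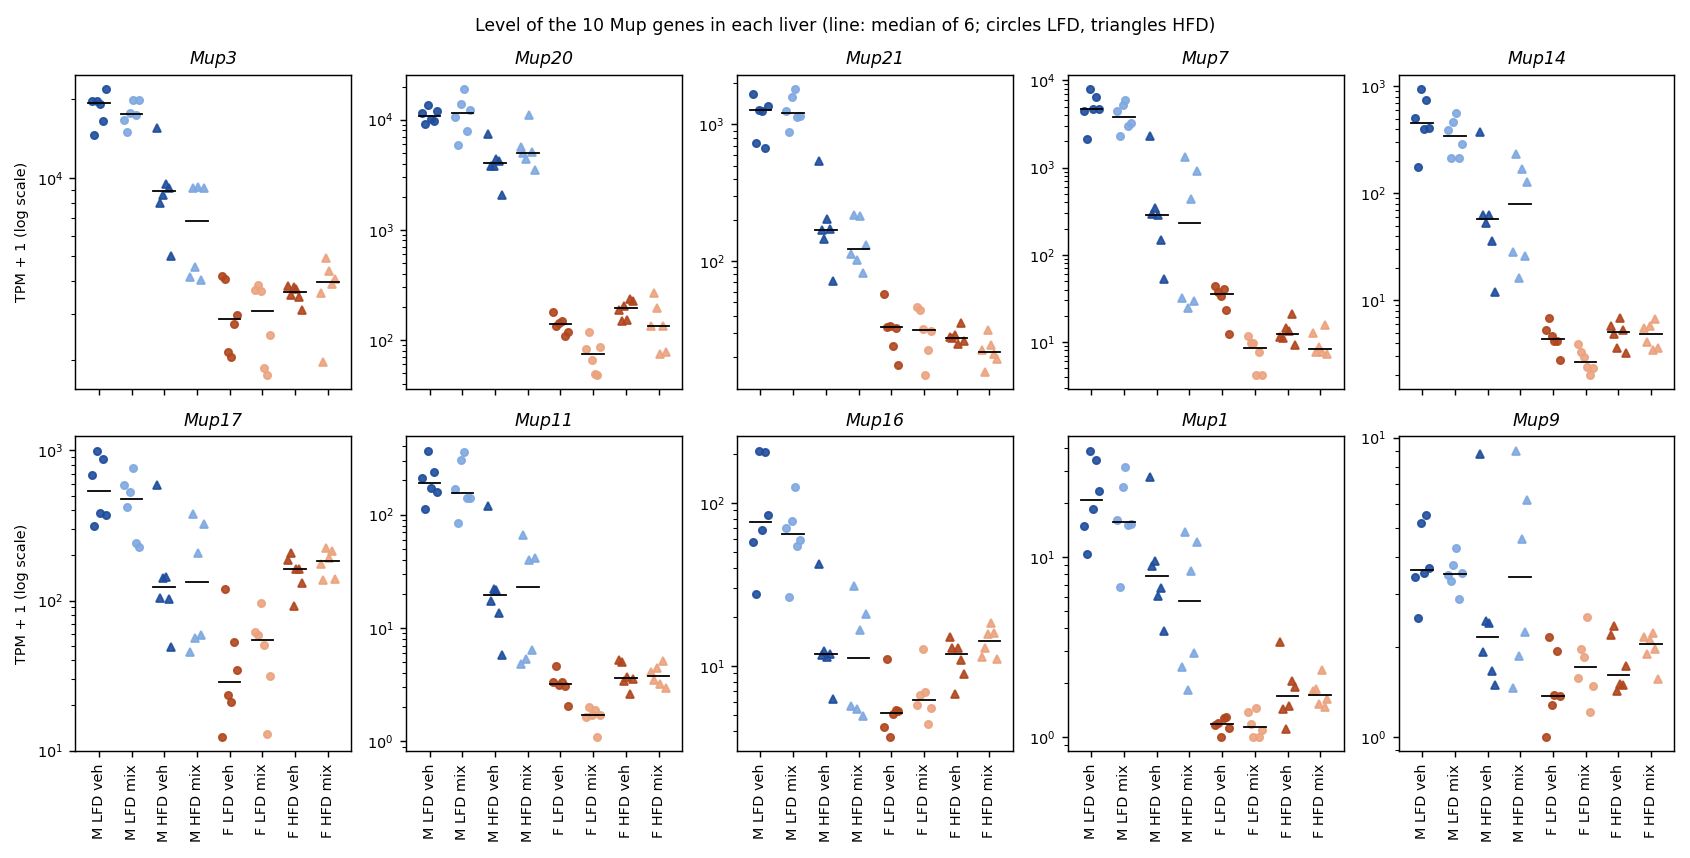
TPM + 1 of each of the 10 Mup genes in each liver, on a log axis with its own range in each panel, for males (M, blue) and females (F, red) on the low-fat (circles) and high-fat (triangles) diet with vehicle (veh, dark) or mixture (mix, light), with a line at the median of 6. Within vehicle and within mixture, all LFD male livers sit above all LFD female livers for every gene, and the HFD male points lie lower and farther apart.

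Every member was higher in males than in females on the low-fat diet. Under vehicle, all 10 passed the test, where 6.61% of the 15820 genes tested were called higher in males. Mup1 passed the filter on low values only through males, with 23 male and 3 female libraries at 1 TPM, so its calls between the sexes are no separate support. The members were chosen with earlier results of these data known, and the near-identical ones may share reads, so the 10 calls are not independent. Differences are given as the difference of group means on the log2(TPM + 1) scale, a log2 difference, with its standard error and the adjusted p of limma's moderated test across all genes. The median log2 difference of the 10 was 4.66, against -0.09 over all genes. With trimmed-mean scaling the split of all genes called went from 1045 higher and 2707 lower in males to 1792 and 1641, and the 10 members were called as before.

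Among the diverged genes under LFD vehicle, Mup3 ranged from 2058 to 4203 TPM in females with a median of 2867, against the 14614 to 21942.5 of males given above. Its group means were 6.13-fold apart, with a log2 difference of 2.66 ± 0.24 (limma, adjusted p = 2.82e-12). Mup3 was thus the member whose expression in females was highest, and its 2 ranges did not overlap. Mup20, the darcin gene, ranged from 107 to 178 TPM in females with a median of 138, against 9178 to 13691 in males. This was an 80.5-fold difference of means, or 6.33 ± 0.28 in log2 (limma, adjusted p = 1.06e-22). Mup21 ranged from 16.5 to 56.9 TPM in females with a median of 31.8, and from 669 to 1661 in males with a median of 1269.8, a log2 difference of 5.16 ± 0.31. No male liver overlapped a female one for either gene.

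Among the near-identical genes, Mup7 differed most. It ranged from 11.5 to 42.9 TPM in LFD vehicle females with a median of 34.3 and from 2102 to 8006 in males, a 165-fold difference of means. The log2 difference was 7.32 ± 0.69 (limma, adjusted p = 1.86e-11). Mup14, with a median of 3.385 TPM in females and 452 in males, followed at 6.71 ± 0.52 in log2, and Mup11, with medians of 2.22 and 189, at 5.94 ± 0.50. Mup1, Mup17 and Mup16 differed by 4.17, 4.04 and 3.99 in log2, and Mup9 by 1.38 ± 0.32. Mup9 had medians of only 0.37 TPM in females and 2.60 in males, so its log2 difference is compressed by the added 1 TPM. The male and female ranges of all 10 genes were separate in LFD vehicle mice, and again in LFD mixture mice, with males higher, as held for 2.75% and 2.23% of all genes. Under the mixture, all 10 were again called higher in males, where 4.92% of genes were, with log2 differences from 1.03 ± 0.32 for Mup9 to 9.04 ± 0.69 for Mup7.

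On the high-fat diet the sex difference was called for 7 of the 10 under vehicle, where 8.26% of genes were called higher in males, and for the same number under the mixture, where 9.73% were. In both cases the members that did not pass were Mup9, Mup16 and Mup17. Mup17 ranged from 48.1 to 586.5 TPM in HFD vehicle males with a median of 122, and from 90.3 to 206 in females with a median of 162. The female median lay above the male one, and the log2 difference was -0.16 with a 95% interval from -1.21 to 0.88 (limma, adjusted p = 0.894). Mup16 ranged from 5.26 to 41.1 TPM in those males and from 5.76 to 14.1 in those females, with nearly equal medians of 10.8 and 10.9. Mup20 kept a wide gap on the high-fat diet, from 2048 to 7414 TPM in vehicle males against 147 to 233 in vehicle females, a log2 difference of 4.41 ± 0.28 (limma, adjusted p = 9.41e-17). Mup3 ranged from 5011 to 15544 TPM in HFD vehicle males and from 3117 to 3840 in females, a 2.59-fold difference of means and 1.30 ± 0.24 in log2. In HFD mixture mice its male range, 4043.5 to 9226 TPM, overlapped the female range, 1957 to 4929, and the log2 difference was 0.76 ± 0.24 (limma, adjusted p = 0.0206). That call for Mup3 was lost without the 3 libraries with muscle transcripts (adjusted p = 0.0547) and without male HFD mixture replicate 4 (adjusted p = 0.0607). Fitted on the HFD mixture groups alone, 4 of the 10 were called in place of 7, with Mup1 (adjusted p = 0.0502), Mup3 (0.101) and Mup11 (0.0521) the ones that no longer passed.

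**Figure D2:**
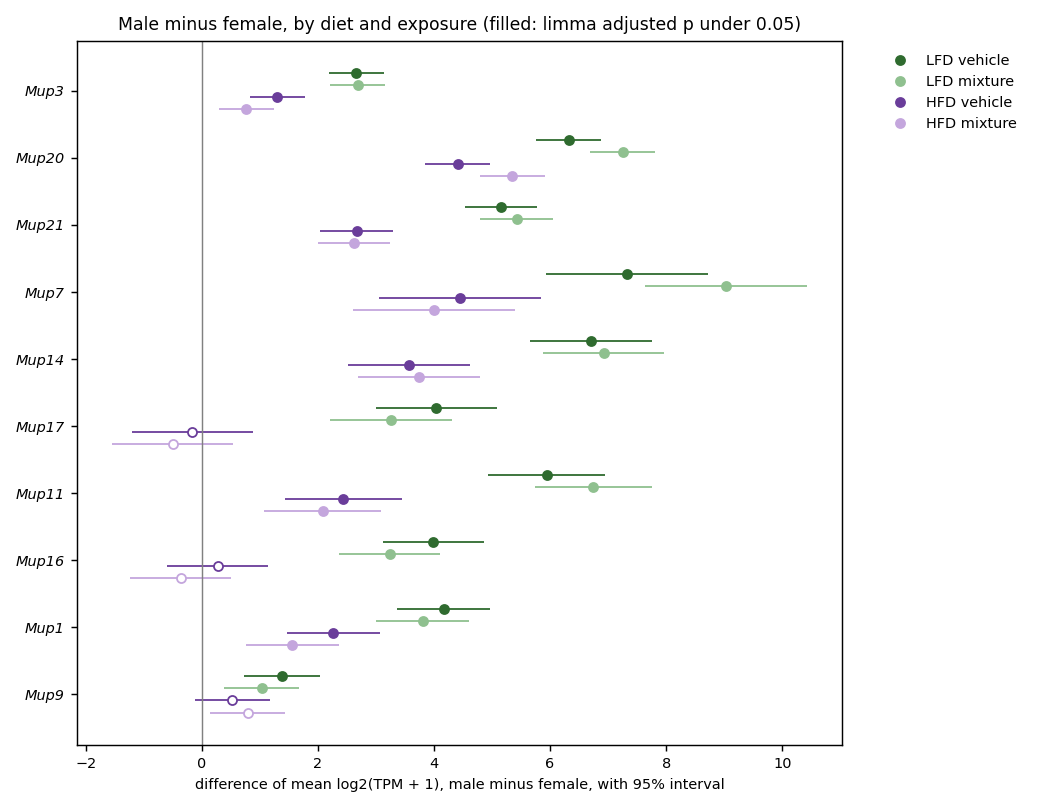
Male minus female difference of mean log2(TPM + 1) for each member with its 95% interval, on the low-fat (green) and high-fat (purple) diet with vehicle (dark) or mixture (light); filled points passed limma's test at an adjusted p under 0.05. The differences on the low-fat diet lie to the right of those on the high-fat diet for every gene, and Mup17 falls from 4.04 to -0.16 under vehicle.

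The high-fat diet lowered most members in males. Under vehicle, 9 of the 10 fell and Mup9 did not pass the test, where 5.82% of the 15820 genes were called lower. The median log2 difference of the 10, HFD minus LFD, was -2.32. Over all genes that median was 0.11, a shift that trimmed-mean scaling brought near 0, and with it the split of all genes called went from 4043 higher (25.6% of genes) and 920 lower to 2071 higher and 1823 lower. The same 9 Mup genes were called lower with that scaling. The 10 hepatocyte markers, most of them genes of secreted proteins, moved the same way, from a median sum of 124857 TPM (range 103370 to 155335) in LFD vehicle males to 84167 (78841 to 91327) in HFD vehicle males. In vehicle females the median of this sum also went down, from 147928 TPM (range 136978 to 165765) to 97798 (94184 to 108035). With all groups in the fit, no Mup member was called lower in those females, which for 10 members is near the 13.5% of all genes called lower there. None of these markers was at 0 in all libraries of a group, and their part in the result was not tested. In whole liver, fewer hepatocytes and less RNA of a gene per hepatocyte cannot be told apart.

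Mup7 had the largest fall, from the LFD vehicle range of 2102 to 8006 TPM to 51.7 to 2310 in HFD vehicle males, with a median of 289. The group means differed 8.89-fold, and the log2 difference was -4.05 ± 0.69 (limma, adjusted p = 1.12e-05). Replicates 2 to 6 were at 340 TPM or below, and replicate 1, at 2310, was the only one to reach the LFD range. Without it the means of Mup7 differed 22.7-fold and the log2 difference was -4.65 ± 0.665 (limma, adjusted p = 5.6e-07). Mup11 ranged from 111 to 365 TPM on the low-fat and from 4.77 to 119 on the high-fat diet (-3.24 ± 0.50 in log2), and Mup14 from 176 to 948 and from 10.9 to 376.5 (-3.04 ± 0.52). Mup16, Mup17 and Mup1 fell by 2.71, 2.01 and 1.31 in log2. For all 5 of these genes, the only HFD vehicle liver inside the LFD range was replicate 1. Mup9 had medians of 2.60 TPM on the low-fat and 1.16 on the high-fat diet, a log2 difference of -0.61 with a 95% interval from -1.26 to 0.04 (limma, adjusted p = 0.149). Without HFD vehicle replicate 1, a choice made after its values were seen, Mup9 passed too, at -0.98 in log2 (adjusted p = 0.00762).

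The diverged genes, whose reads are least shared, fell as well. Mup21 ranged from 669 to 1661 TPM on the low-fat and from 71.0 to 536 on the high-fat diet, with medians of 1269.8 and 169.5, and its groups did not overlap. Its means differed 5.395-fold, or 7.68-fold without replicate 1, and the log2 difference was -2.62 ± 0.31 (limma, adjusted p = 8.93e-09). Mup20 fell from a median of 10844 TPM to one of 4012 (range 2048 to 7414), a log2 difference of -1.46 ± 0.28, again without overlap. Mup20 and Mup21 were the 2 members of 10 whose diet groups were separate, where 2.26% of genes were so with HFD lower. Mup3 fell from a median of 19402 to 8869 TPM (range 5011 to 15544), -1.07 ± 0.24 in log2 (limma, adjusted p = 0.000422), and replicate 1 alone reached its LFD range. As a share of all TPM, the 10 members went from 3.74% ± 0.61 to 1.47% ± 0.65 (SD, n = 6). Mup7's part of that sum went from 13.3% to 2.88%, or to 1.74% without HFD vehicle replicate 1. Under the mixture the same 9 genes fell, where 6.92% of genes were called lower, with log2 differences from -1.01 ± 0.28 for Mup20 to -4.65 ± 0.69 for Mup7. Mup21, at -3.25 ± 0.31, had 887 to 1822 TPM on the low-fat and 81.1 to 216 on the high-fat diet.

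In females, with all groups in the fit, no member was called lower on the high-fat diet, and Mup17 rose. Of all genes, 13.5% were called lower under vehicle and 7.74% under the mixture, so for 10 members the absence of such calls is near the share over all genes. Under vehicle, Mup17 ranged from 11.4 to 119 TPM on the low-fat diet with a median of 27.9, and from 90.3 to 206 on the high-fat diet with a median of 162. One LFD female, at 119 TPM, overlapped the HFD range, and the log2 difference was 2.19 ± 0.52 (limma, adjusted p = 0.00116). It was the 1 member of 10 called, where 14.4% of genes were called higher. Under the mixture, Mup17 rose by 2.01 ± 0.52 and Mup20 by 0.90 ± 0.28, 2 members called where 11.5% of genes were called higher. Both counts are near the shares over all genes. Mup20 ranged from 47.0 to 116 TPM in LFD mixture females and from 73.5 to 263 in HFD mixture females. Mup16 ranged from 2.68 to 10.03 TPM in LFD vehicle females and from 5.76 to 14.1 in HFD vehicle females, a log2 difference of 1.01 ± 0.43 that did not pass (limma, adjusted p = 0.0753). Mup3 had medians of 2867 and 3652 TPM on the 2 diets, a log2 difference of 0.30 with a 95% interval from -0.18 to 0.77. The calls in females depended on the fit. With only the groups compared, Mup16, Mup17 and Mup20 were called higher under vehicle and Mup7 was called lower, at -1.18 (limma, adjusted p = 0.0129). Under the mixture that fit called Mup1, Mup11, Mup14, Mup16 and Mup17 higher, and the call for Mup20 was lost (adjusted p = 0.0698).

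The diet response differed between the sexes for 9 of the 10 members under vehicle, where the male response was more negative for 3.47% of genes, and for 9 under the mixture, where it was for 3.65%. Mup9 was the exception in both. Mup17, lower in HFD males and higher in HFD females, had the largest difference of log2 responses under vehicle, -4.21 ± 0.73 (limma, adjusted p = 7.3e-05). Mup16 followed at -3.72 ± 0.61 and Mup11 at -3.51 ± 0.71. Mup7, at -2.87 ± 0.98 (adjusted p = 0.0345), did not pass when no filter on low values was used (adjusted p = 0.0788). Under the mixture Mup7 had the largest, -5.04 ± 0.98. Mup3 differed least among those called under vehicle, at -1.36 ± 0.33.

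**Figure D3:**
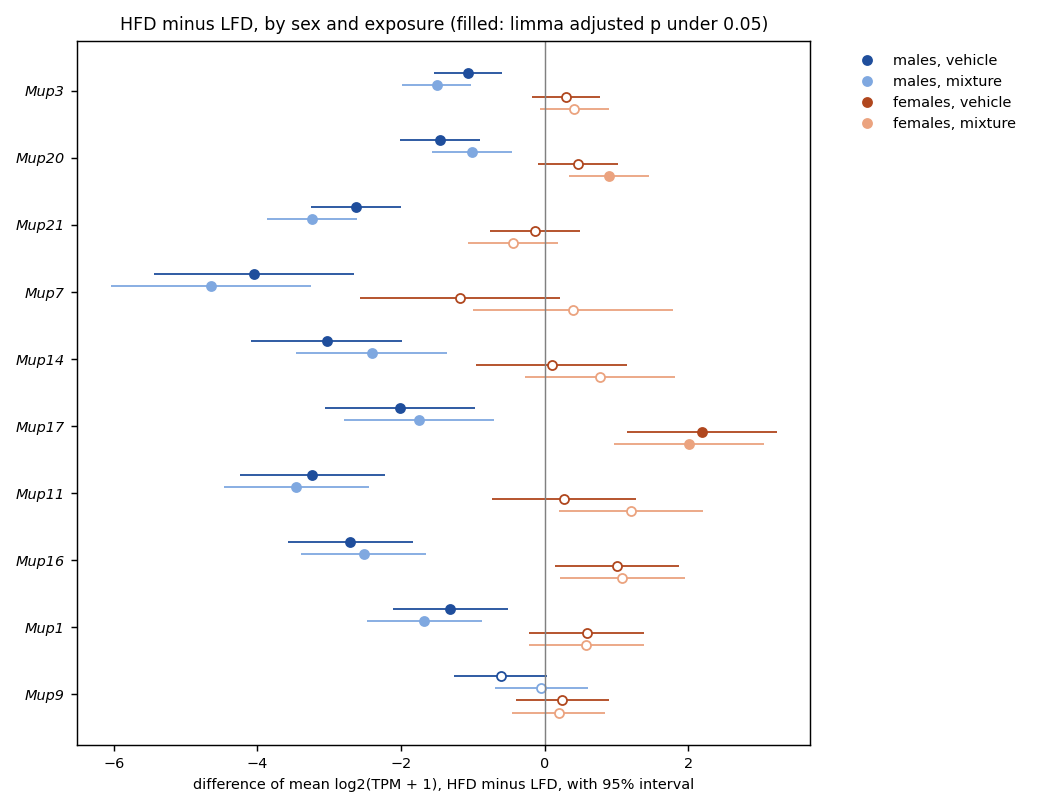
HFD minus LFD difference of mean log2(TPM + 1) for each member with its 95% interval, in males (blue) and females (red) with vehicle (dark) or mixture (light); filled points passed limma's test at an adjusted p under 0.05. The male points lie left of 0 for all 10 genes, down to -4.65 for Mup7, and the female points lie near or right of 0, with Mup17 at 2.19 and 2.01, except Mup7 at -1.18 under vehicle.

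The HFD male livers were unlike one another. Under vehicle, the 10 members summed to 26962 TPM in replicate 1, 12495 in replicate 2, 13080 in replicate 3, 14589 in replicate 4, 13837 in replicate 5 and 7254 in replicate 6. Replicate 1 was the highest and replicate 6 the lowest for each of the 10 genes. Adipocyte markers summed to 341.5 TPM in replicate 1 and to between 42.1 and 69.6 in the other 5, and their part in the result was not tested. Under the mixture, Mup3 was at 4159 TPM in replicate 1, 9123 in replicate 2, 4543 in replicate 3, 9226 in replicate 4, 4043.5 in replicate 5 and 9111 in replicate 6. Mup7 was at 31.0, 1311, 23.7, 435, 28.9 and 913 TPM in the same livers. Replicates 1, 3 and 5 were low, and replicates 2, 4 and 6 high, for 9 of the 10 genes. Mup20 did not follow, with 5703.5, 4974, 4415, 10989, 5065 and 3475 TPM. Its level as a ratio to Mup3 was 0.95 ± 0.40 in these livers, against 0.45 ± 0.03 in HFD vehicle males and 0.60 ± 0.06 in LFD vehicle males (SD, n = 6). In LFD mixture males the ratio was 0.64 ± 0.21, so a wide spread was not particular to the HFD mixture males.

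Values of other cells' markers are given beside these levels. In replicates 1 to 6 of the HFD mixture males, cholangiocyte markers summed to 302, 134, 284, 212, 528 and 73.0 TPM, with a range of 83.5 to 139.5 in HFD vehicle males. The lowest cholangiocyte sums were thus in the livers with more Mup7, of which replicate 6 is the one with muscle transcripts. This split of the livers was made after the values were seen. Stellate cell and fibroblast markers summed to 434.5, 294, 460.5, 385, 608 and 738 TPM in the same order, and macrophage markers to 349.7, 352, 478.5, 290.2, 461 and 262. The hepatocyte marker sum was 83835, 76136.5, 90853, 80761, 89626 and 63941 TPM, the last in the liver with muscle transcripts. This sum too was lower in each liver with more Mup7 than in any of the others, and its part in the Mup levels was not tested. The stellate and macrophage sums did not split the livers in this way. All 6 cholangiocyte, 8 stellate and 8 macrophage markers were detected in these groups, and their part in the Mup levels was not tested.

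**Figure D4:**
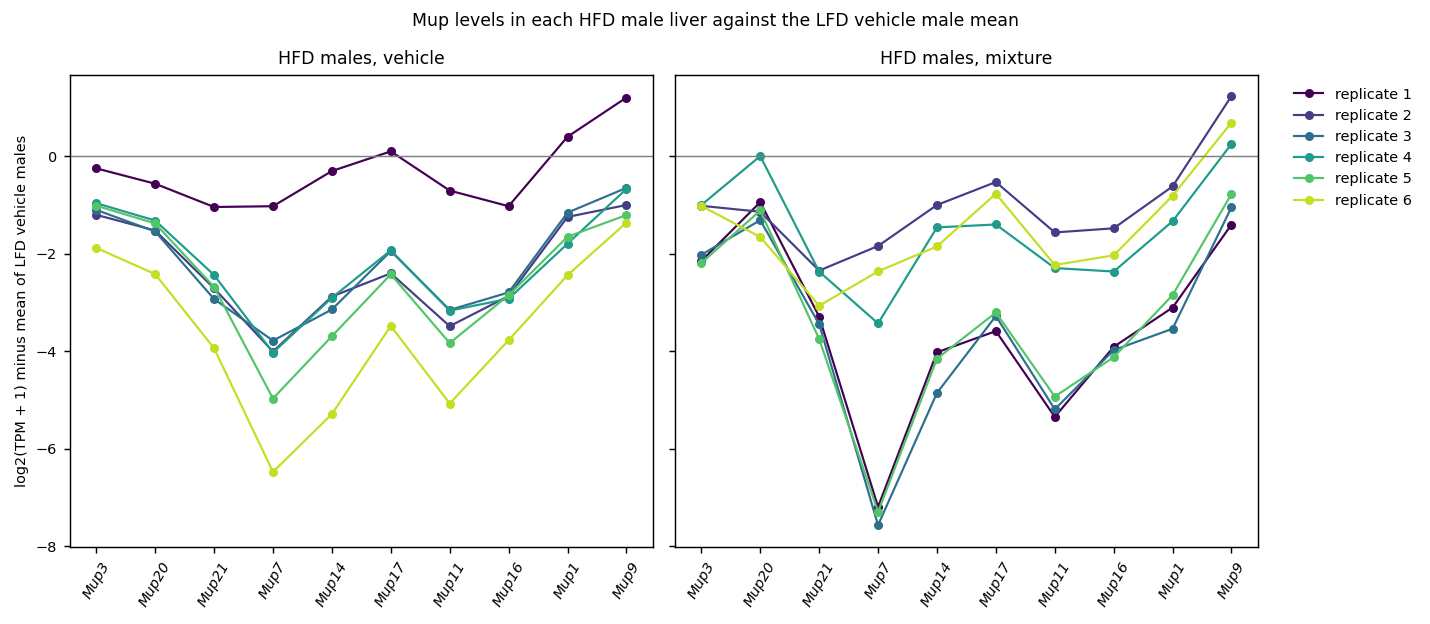
Level of each member in each HFD male liver as log2(TPM + 1) minus the mean of the 6 LFD vehicle males, with 1 line per liver, under vehicle (left) and mixture (right). Under vehicle 1 liver, replicate 1, lies above the other 5 for every gene, and under the mixture 3 lines lie lower than the other 3 for every gene except Mup20.

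No member passed the test for the mixture in any stratum. By limma, 0 of 10 passed in LFD males, HFD males, LFD females and HFD females, where 0.0379%, 0.0948%, 0.0379% and 0.0126% of all genes were called in either direction. At an unadjusted p under 0.05 there were 0, 1, 2 and 0 members in these strata, and 830, 1486, 1503 and 670 of all 15820 genes. The mean of the 4 responses called 0 members, against 0.0948% of genes, and Mup7 was the 1 member under an unadjusted 0.05, at -0.92 ± 0.35 in log2 (limma, adjusted p = 0.295). For comparison, 8 targets of the aryl hydrocarbon receptor were tested, and 4 of them rose in LFD males, 2 in HFD males, 4 in LFD females and 2 in HFD females.

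In LFD females, every mixture liver had less Mup7 and Mup11 RNA than any vehicle liver. Mup7 ranged from 11.5 to 42.9 TPM under vehicle and from 3.19 to 10.6 under the mixture, with medians of 34.3 and 7.62. The 2 groups did not overlap, yet the log2 difference of -2.02, with a 95% interval from -3.41 to -0.62, did not pass (limma, adjusted p = 0.336). Mup11 ranged from 1.06 to 3.605 TPM under vehicle and from 0.098 to 1.00 under the mixture, again without overlap, with a log2 difference of -0.94 (limma, adjusted p = 0.557). Of all genes tested, 0.101% had this separation with the mixture group lower. Over their aligned coding bases Mup7 and Mup11 are 98.9% identical and may share reads, so the 2 are not separate observations. Mup11 was also near or below 1 TPM in every mixture liver. Mup20 ranged from 107 to 178 TPM under vehicle and from 47.0 to 116 under the mixture, with the highest mixture liver inside the vehicle range, and a log2 difference of -0.94 ± 0.28 (limma, adjusted p = 0.258). No member passed either without the libraries with muscle transcripts, 1 in each of these groups. Mup3 did not share the lower level, with medians of 2867 and 3080 TPM and a log2 difference of -0.09 with a 95% interval from -0.56 to 0.39.

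In males the intervals were wide enough to hold changes of either sign for most members. In LFD males, Mup3 had medians of 19402 and 17575 TPM, a log2 difference of -0.06 with a 95% interval from -0.54 to 0.41. In HFD males, Mup3 had medians of 8869 and 6827 TPM, -0.50 with an interval from -0.97 to -0.02, and was the 1 member under an unadjusted 0.05 (limma, adjusted p = 0.504). Mup20 there differed by 0.43 with an interval from -0.13 to 0.99. Whether the mixture acted differently on the 2 diets was also tested, and 0 of 10 members passed in males or in females, where 0.00632% of genes did in each, with 0 members at an unadjusted p under 0.05 in either sex.

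**Figure D5:**
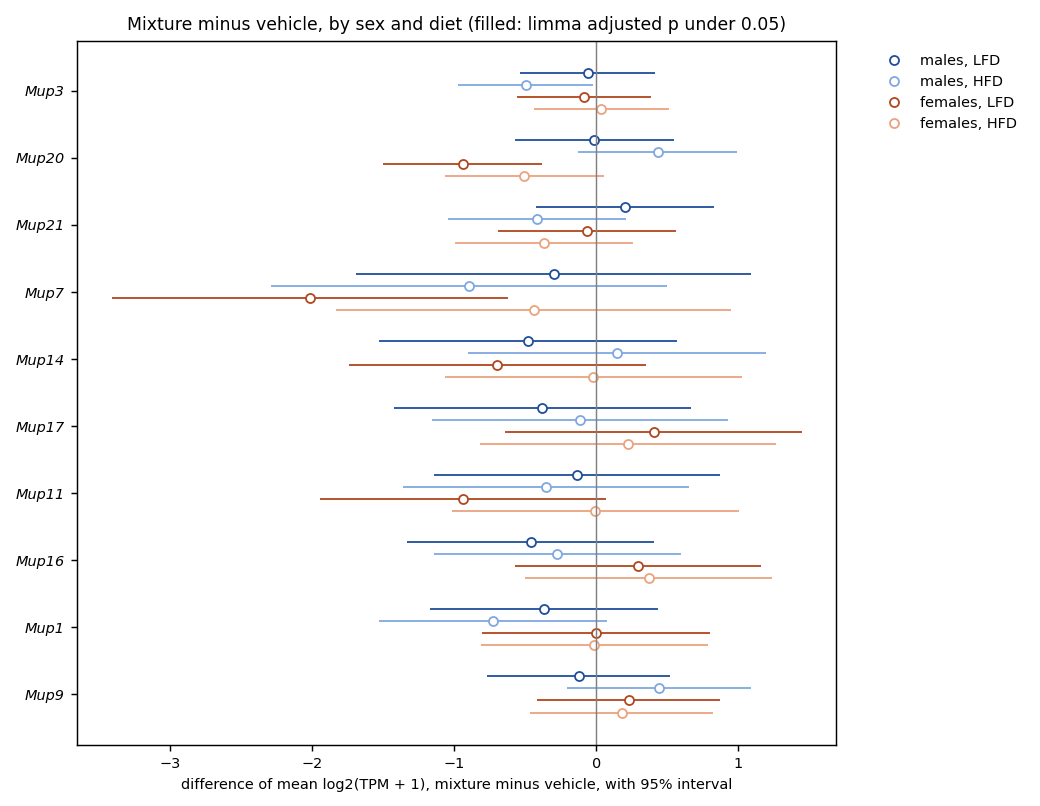
Mixture minus vehicle difference of mean log2(TPM + 1) for each member with its 95% interval, in males (blue) and females (red) on the low-fat (dark) and high-fat (light) diet; open points did not pass limma's test at an adjusted p under 0.05. All points are open, and Mup7 in LFD females lies farthest from 0, at -2.02.

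The members did not all vary together from liver to liver. After each group's mean was subtracted from log2(TPM + 1), Pearson's r over the 48 libraries was 0.94 for Mup11 and Mup14, 0.92 for Mup7 and Mup14 and 0.905 for Mup7 and Mup11. These genes share most of their sequence, and the part of shared reads in these values was not tested. Mup3 and Mup21, which are 96.3% alike and hold mostly windows of their own, had an r of 0.78. Mup20 had the lowest values, from 0.22 with Mup9 to 0.605 with Mup21, and 0.30 with Mup3. These correlations are descriptions over libraries that share a scale of TPM. The make-up of the sum also differed between sexes, since Mup3 was 92.0% ± 1.8 of the 10-member total in LFD vehicle females (SD, n = 6) and 50.1% ± 4.1 in LFD vehicle males. Mup17 was 1.26% ± 0.85 of it in LFD vehicle females and 3.91% ± 0.99 in HFD vehicle females.

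Genes outside the family whose levels were most like the summed Mup level were found by Pearson's r on the log2(TPM + 1) scale over the 48 libraries. The 5 highest were Slc22a28 (0.97), an organic anion transporter, C8a (0.965), a complement component, Cyp7b1 (0.96), an oxysterol hydroxylase, Cyp4a12b (0.96), a fatty acid hydroxylase, and C6 (0.955), another complement component. The 5 lowest were Cyp2a4 (-0.96), a steroid hydroxylase, Nt5e (-0.95), the ecto-nucleotidase CD73, Cyp2c39 (-0.945), Gm42375 (-0.94) and Slc22a27 (-0.94). Since these values follow the group means, they were taken again with the means subtracted. The highest were then Slco1a1 (0.78), an organic anion carrier, Sult2a8 (0.77), a sulfotransferase, C8b (0.76), Serpina1e (0.76) and Serpina1c (0.75), 2 protease inhibitors of the alpha-1-antitrypsin family. Slco1a1 averaged 233 ± 46.8 TPM in LFD vehicle males, 48.2 ± 44.2 in HFD vehicle males and 12.7 ± 11.1 in LFD vehicle females. Among the lowest were Smarca4 (-0.69), a chromatin remodelling ATPase, and Gstm3 (-0.68), Gstm2 (-0.68) and Gstm1 (-0.68), glutathione transferases.

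Lists of related genes are given beside the Mup genes for the diet response of vehicle males, where 25.6% of all genes were called higher and 5.82% lower. Of 20 tested genes of a list of male-biased liver genes, all 20 were higher in males under LFD vehicle and 17 under HFD vehicle, and 17 of the 20 fell on the high-fat diet while none rose, with a median log2 difference of -1.58. Hsd3b5, a steroid dehydrogenase, fell by 5.71 ± 0.55, Moxd1, a monooxygenase, fell by 5.48 ± 0.555, Selenbp2, a selenium-binding protein, fell by 3.46 ± 0.36 and Susd4, a complement regulator, fell by 2.33 ± 0.19 in log2. The Mup median in the same comparison was -2.32. Of 26 female-biased genes, 26 were lower in males under LFD vehicle and 25 under HFD vehicle. In vehicle males on the high-fat diet 11 of them rose and 1 fell, and Cyp2b9 rose by 5.47 ± 0.38, Cyp2a22 by 4.01 ± 0.305, Acot3, an acyl-CoA thioesterase, by 3.34 ± 0.40 and Rtn4, a membrane protein of the endoplasmic reticulum, by 1.02 ± 0.10. Each gene named here from the 2 lists was called in the same direction with trimmed-mean scaling. These lists name genes by their known sex bias, so their sex differences are no independent evidence. Both lists were chosen with earlier results of these data known, so their diet differences are none either.

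Growth hormone and STAT5 signalling governs the sex bias of the family, and the RNA of 16 of its genes was examined. The activity of the signal itself was not measured. In vehicle males on the high-fat diet 5 of the 16 rose and 2 fell, against the 25.6% and 5.82% of all genes, and with trimmed-mean scaling 4 rose and 4 fell. The 4 genes of the list with the smallest p all rose, so those that fell are not named. Stat5a rose by 0.825 ± 0.12, Prlr, the prolactin receptor, by 0.925 ± 0.15, Igfbp3 by 0.79 ± 0.15 and the phosphatase gene Ptpn11 by 0.36 ± 0.085 in log2, and each of these calls held with that scaling. Of 20 hepatocyte transcription factors and receptors, 6 rose and 4 fell, and 3 and 5 did with trimmed-mean scaling. Trim24 was at 1.14 ± 0.12, Foxa3 at -0.68 ± 0.15 and Nr1i3 at 0.79 ± 0.20.

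Of 11 tested lipocalins outside the family, 4 rose and 1 fell, with a median log2 difference of -0.07, and 4 and 3 did with trimmed-mean scaling. Apom, a carrier of sphingolipid on lipoproteins, fell by 1.51 ± 0.11, whereas Orm3, an orosomucoid, rose by 3.99 ± 0.32, the siderophore-binding Lcn2 by 2.67 ± 0.39 and Orm2 by 1.75 ± 0.34 in log2. Of 25 abundant secreted liver proteins, 12 fell and 5 rose, with a median of -0.18, and 16 and 2 did with trimmed-mean scaling. Serpina1a fell by 0.78 ± 0.09, Serpina1d fell by 0.66 ± 0.09, the fibrinogen chain gene Fgb fell by 0.615 ± 0.09 and Kng1, a kininogen, fell by 0.48 ± 0.06. Of 25 genes of secretion and folding in the endoplasmic reticulum, 2 rose and 1 fell, and 1 and 2 did with trimmed-mean scaling. P4hb, a protein disulfide isomerase, was at 0.40 ± 0.08, Spcs1, a signal peptidase subunit, at 0.24 ± 0.07, Xbp1, a factor that drives secretory capacity, at -0.45 ± 0.13 and Sec61a1, a subunit of the translocation channel, at -0.27 ± 0.13, the last without passing (limma, adjusted p = 0.121). The call for Spcs1 was lost with that scaling (adjusted p = 0.454) and Sec61a1 was called lower (adjusted p = 0.00858). Of 15 genes of insulin and glucose handling, 1 rose and 2 fell, and 1 and 6 did with trimmed-mean scaling. Foxo1 rose by 0.56 ± 0.13, the pyruvate kinase gene Pklr fell by 0.92 ± 0.25 and the glycogen synthase gene Gys2 fell by 0.34 ± 0.13, while Ppargc1a, at -0.48 ± 0.19, did not pass (limma, adjusted p = 0.0524) and did with that scaling (adjusted p = 0.015).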

How the data were processed

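The deposited table holds TPM for 49315 genes in 48 liver libraries, made by the authors; its columns sum to 1000000, and 0 columns belonged to no sample. Per the submitters' processing notes, reads were handled with FastQC, Trimmomatic 0.36 and STAR 2.5.2b on GRCm38; the sources used here do not name the step that gave TPM or how it treated multiply matching reads. The members, gene lists and tests were chosen with earlier results of these data known. Genes at 1 TPM or more in at least 6 libraries (15820) were tested with limma 3.58.1 (R 4.3.3) on log2(TPM + 1), with 1 mean per group, 40 residual degrees of freedom, an intensity trend, two-sided tests, Benjamini-Hochberg adjustment over all genes within each comparison and a threshold of 0.05. A fold change on this scale understates that of low genes. The method was tested on simulated data. Named genes were the 10 members, the other numbered Mup rows, the 4 smallest p-values of each list described and the 5 highest and lowest correlations with the summed Mup level; 2 genes that this rule names are not reported here. Alternatives were trimmed-mean scaling, a total without Mup rows, no filter, a pseudocount of 0.1, only the groups compared, a replicate block and leaving out libraries. Coding sequences were aligned with MAFFT 7.526.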

Additional observations from a re-analysis of the deposited data

Results flagged for a closer look

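In 88 sets of 6 values (each member and their sum, in each group), 12 held a liver set apart from the other 5 by Dixon's criterion. For independent sets of normally distributed values chance alone reaches it in about 1 of 20. These values are TPM without a log, and the sets share livers and reads, so that rate is no measure for them. Of these, 9 came from male HFD vehicle replicate 1, which was the highest of its group at 26.85 TPM for Mup1, 2309.9 for Mup7, 7.842 for Mup9, 118.6 for Mup11, 376.5 for Mup14, 41.13 for Mup16, 586.5 for Mup17, 536.2 for Mup21 and 26961.7 for the sum of the 10. Mup20 also stood apart in male HFD mixture replicate 4, at 10989 TPM. Mup16 stood apart in female LFD vehicle replicate 2, at 10.03 TPM, and in female LFD mixture replicate 3, at 11.66 TPM, the last being one of the libraries with muscle transcripts.

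The response to the high-fat diet differed between the sexes by limma's test of the difference itself, male minus female on the log2(TPM + 1) scale. Under vehicle it was -1.904 for Mup1, -1.362 for Mup3, -2.866 for Mup7, -3.506 for Mup11, -3.134 for Mup14, -3.715 for Mup16, -4.206 for Mup17, -1.920 for Mup20 and -2.486 for Mup21. Under the mixture it was -2.251 for Mup1, -1.921 for Mup3, -5.040 for Mup7, -4.663 for Mup11, -3.183 for Mup14, -3.603 for Mup16, -3.760 for Mup17, -1.907 for Mup20 and -2.806 for Mup21.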

How the results depend on the processing

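The 10 of 10 Mup genes called between the sexes on the low-fat diet and the 9 of 10 called for diet in males stayed within 1.5 times under every alternative. In females the diet counts went from 1 to 2 under vehicle and from 2 to 4 under the mixture with a pseudocount of 0.1, and to 4 and 5 with only the groups compared, where the spread is estimated from fewer samples. The main fit pools the spread of all 8 groups, HFD males included. Without male HFD vehicle replicate 1, Mup11 was also called higher in mixture females (limma, adjusted p = 0.0485). The count between the sexes for HFD mixture mice went from 7 to 4 with only the groups compared. The labels tie the replicate numbers to nothing shared, and the mean correlation of same-numbered samples' deviations from their group means was between -0.00908 and 0.0666 for the 6 numbers, so they were not taken as pairs; 14 of 48 libraries correlated best with their own number. The fit with the replicate block changed no count of Mup genes called. With trimmed-mean scaling the split of all genes called, higher against lower, went from 778 and 2620 to 1544 and 1244 between the sexes under LFD mixture, from 1307 and 558 to 967 and 742 under HFD vehicle, from 1540 and 879 to 1155 and 1201 under HFD mixture, from 5010 and 1095 to 2473 and 2551 for diet in mixture males, and from 2338 and 549 to 1069 and 1031 (vehicle) and 2116 and 578 to 907 and 1149 (mixture) for diet by sex. Of single log2 differences, none that passed the test changed sign. Those that did, none of which passed the test, were as follows. Without the 3 libraries with muscle transcripts they were, for the mixture, Mup14 in HFD males (-0.063), Mup16 in LFD females (-0.006) and Mup17 in the mean of the 4 responses (-0.118). For the mixture response by diet they were Mup16 (-0.002) and Mup17 (-0.007) in males and Mup9 (0.013) and Mup17 (0.148) in females. With a pseudocount of 0.1 Mup1 turned for the mixture in HFD females (0.149) and by diet in females (0.299), and with trimmed-mean scaling Mup3 turned in HFD females (-0.007). Leaving out male HFD vehicle replicate 1 or male HFD mixture replicate 4, alternatives chosen after seeing the data, moved the mixture response of HFD males between -0.617 and 0.150 for Mup11, -0.141 and 0.692 for Mup14, -0.399 and 0.061 for Mup16 and -0.260 and 0.309 for Mup17. The same alternatives gave -0.051 to 0.064 for Mup16 and -0.004 to 0.138 for Mup17 in the mean of the 4. They gave -0.903 to 0.006 for Mup7 and -0.481 to 0.285 for Mup11 by diet in males, and -0.061 to 0.276 for Mup16 between the sexes under HFD vehicle. The cause of these changes was not tested. With no read counts deposited in the table, the precision that depth allows for the low genes, Mup1 and Mup9 above all, cannot be stated.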

Other observations

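The table holds 11 further numbered Mup rows outside the 10 followed above, of which 9 passed the filter on low values. Mup15 was the most abundant of them, with a mean of 839.9 ± 475 TPM in LFD vehicle males, 156.6 ± 185 in HFD vehicle males and 97.5 ± 83.5 in LFD vehicle females (SD, n = 6). All 9 were called higher in males under LFD vehicle by limma, where 6.61% of all genes were. On the high-fat diet 7 were called lower in vehicle males, where 5.82% of genes were, and 3 were called higher in vehicle females, where 14.4% were. Mup2 was one of those not called in males, with 11.8 ± 4.08 TPM on the low-fat and 11.9 ± 2.68 on the high-fat diet, while in vehicle females it rose from 3.66 ± 1.71 to 8.29 ± 2.80.

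Of 27 rows annotated as Mup pseudogenes, 17 were tested. In vehicle females on the high-fat diet 8 were called higher and 0 lower, where 14.4% and 13.5% of all genes were. In vehicle males 3 were called higher and 5 lower, where 25.6% and 5.82% were. Mup-ps16, named after its values were seen, averaged 74.7 ± 28.6 TPM in LFD vehicle females and 193 ± 81.4 in HFD vehicle females, a log2 difference of 1.42 ± 0.28 (limma, adjusted p = 0.000164). Mup-ps10, named in the same way, was at 5.33 ± 3.30 and 31.1 ± 17.0 TPM in those groups, and at 0.24 ± 0.22 in LFD vehicle males. Pseudogenes share sequence with the near-identical genes, so reads may have been split between them, and whether these rows reflect transcripts of their own was not tested.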
